A study of Mus musculus with 25 samples.

Results

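Keratins and keratin-associated proteins were followed through 25 melanomas as a measure of how much skin, and which part of skin, each excised tumour carried. The 107 genes were taken by name: every row of the count table whose symbol begins with Krt and a digit or with Krtap, provided that its counts summed over the 25 tumours reached 10. They were thus chosen by symbol and by summed counts over all tumours, without regard to group. Of 55450 genes in the table, 113 had such a symbol, and 6 of them did not reach that sum. Just under it lay Krt8-ps with 3.1 counts, Krt13 and Krt76 with 2 each, and Krt9 with 1, and Krt88 and Krtap13 had none. Just above it lay Krtap20-2 with 23 counts, Krt42 with 28, Krt12 with 33 and Krt2 with 36. By what the genes are known for, 17 were classed as epidermal, 5 as simple epithelial, 9 as root sheath keratins, 15 as hair shaft keratins and 57 as keratin-associated proteins, and 4 fell in none of these classes.

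The tumours were grown in C57BL/6 mice from B2905, also called M4, a melanoma line, so that all 25 share 1 line and no untreated tumour was analysed here. Of 40 implanted mice, 30 were given anti-CTLA-4, an antibody against a receptor that restrains T cells, and 5 were given the isotype antibody IgG2b, both at 10 mg/kg, from an average tumour size of 75 mm3. The sequenced tumours were 5 controls that received IgG2b and 20 that received anti-CTLA-4, and the latter were sorted by size 10 to 11 days after the last dose into 8 responders (size fell), 6 stable tumours (size held) and 6 nonresponders (size grew). The labels give neither the age nor the sex of the mice, and the numbers used here for tumours within a group only name them.

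Keratins are the intermediate filaments of epithelial cells, and each layer of skin makes its own pairs of a type I and a type II chain. Basal keratinocytes make Krt5 and Krt14 and replace them by Krt1 and Krt10 when they move up, while a growing hair follicle makes one set of keratins in its inner root sheath and another in the hair shaft. In the shaft the filaments are embedded in a matrix of keratin-associated proteins, small proteins rich in cysteine or in glycine and tyrosine, which are made late in the differentiation of the cortex and cuticle. Melanoma cells derive from melanocytes, which are not epithelial.

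The 2 families sit in a few dense clusters of the genome (mm10 coordinates from GENCODE M21). Chromosome 11 held 48 of the 107 genes between 99232761 and 100269871, chromosome 15 held 25, chromosome 16 held 24, and chromosomes 7, 10 and 1 held 5, 3 and 2. The keratins were divided evenly, with 25 on chromosome 11 and 25 on chromosome 15. All 56 keratin-associated protein genes with a coding transcript had a single exon, with a median longest transcript of 853.5 bases. The keratins with a coding transcript had 6 to 9 exons and a median of 1953 bases. Short single-exon genes gather fewer counts per molecule, so the order of single genes by level is given in RPKM, the deposited value scaled to gene length and library size. The library size behind it was not the total of all counts. Krt71 had 230 RPKM from 3067 of 13.2 M counts in responder 1. It had 267 RPKM from 20323 of 22.7 M counts in control 3. CPM, counts-per-million of all counted reads, serves to compare tumours, and ratios of counts between classes below are compared between tumours and do not show which class had more transcript.

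Start sites from RefSeq (GRCm38.p6) were available for 83 of the 107 genes, and the bases just before them show a feature that the choice of genes did not use. The letters TATAAA, the core of a TATA box, stood on the gene's own strand with the first base 40 to 20 before the start in 43 of the 83 (51.8%), against 1.99% of all 32851 promoters in the table. By class, they stood there in 31 of 50 keratin-associated protein genes, 5 of 8 root sheath keratins, 4 of 9 hair shaft keratins and 1 of 9 epidermal keratins. Only these exact letters were counted. Near variants, such as ggataaaag in Krt5 and tatataag in Krt2 and in Krt36 of the shaft, were not, so the shares do not show which promoters lack a TATA box. For several genes the start used lay inside the gene as annotated by GENCODE. Among them were Krt14, which ends at 100207548, Krt71, which ends at 101743109, and Krt7, which begins at 101411043 on the plus strand. The 60 bases before the start are shown for genes of each class described below and for 1 near-identical pair, read 5′ to 3′ on the gene's strand, with TATAAA in capitals where it occurs. The windows are chr15:101712906-101712965 for Krt5, chr11:99389365-99389424 for Krt10, chr15:101743098-101743157 for Krt71, chr11:99322952-99323011 for Krt25, chr11:100050552-100050611 for Krt31, chr11:100041555-100041614 for Krt34, chr16:89487953-89488012 for Krtap8-1 and chr11:99628240-99628299 for Krtap4-1, all on the minus strand, and chr11:99907860-99907919 for Krtap31-1 and chr11:99936231-99936290 for Krtap31-2, both on the plus strand.
Krt5: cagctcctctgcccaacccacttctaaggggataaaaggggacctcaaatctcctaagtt
Krt10: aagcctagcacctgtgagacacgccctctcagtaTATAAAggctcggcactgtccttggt
Krt71: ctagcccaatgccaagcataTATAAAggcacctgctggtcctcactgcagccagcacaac
Krt25: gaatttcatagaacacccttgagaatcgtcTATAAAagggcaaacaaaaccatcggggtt
Krt31: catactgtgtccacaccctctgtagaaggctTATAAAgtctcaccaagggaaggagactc
Krt34: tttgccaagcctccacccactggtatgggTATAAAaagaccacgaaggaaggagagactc
Krtap8-1: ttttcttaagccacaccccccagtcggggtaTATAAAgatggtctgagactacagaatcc
Krtap4-1: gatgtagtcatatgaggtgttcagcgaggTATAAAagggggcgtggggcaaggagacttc
Krtap31-1: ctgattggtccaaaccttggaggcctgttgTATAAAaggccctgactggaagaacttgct
Krtap31-2: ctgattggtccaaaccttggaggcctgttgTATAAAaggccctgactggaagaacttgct

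Krt10 was the 1 epidermal keratin of 9 with the letters in that place, and Krt5 had none in this window. The windows of Krtap31-1 and Krtap31-2 were the same over all 60 bases. Within the 250 bases before the start, CTTTGAA or CTTTGAT, letters bound by LEF1 and TCF proteins, occurred on either strand in 5 of 9 hair shaft keratins, 10 of 50 keratin-associated protein genes and 7.48% of all promoters. They occurred in 1 of 9 epidermal and 0 of 8 root sheath keratins. TGANTCA, letters bound by AP-1, occurred in 10 of the 50 keratin-associated protein genes and in 6.75% of all promoters. They occurred in none of the 9 epidermal, 9 hair shaft and 8 root sheath keratins. These letters are a description of the sequence, and no binding was measured.

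Copies this alike share reads. The deposited counts are estimates that divide such reads, and a value that is not whole marks a gene that shared some. Every value of Krtap4-8 and Krt6b above 0 was not whole, as were 16 of 17 for Krt81, 11 of 12 for Krtap9-1 and 9 of 10 for Krtap31-2. Sharing touched 33 of the 57 keratin-associated protein genes and 9 of the 15 hair shaft keratins, so that values of single copies in these families are uncertain while their sums are less so.

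Total counts ranged from 8.76 M to 34.3 M per tumour, at which a count of 0 allows up to 0.0874 to 0.342 CPM (3 counts, counting error only). Protein-coding genes took 82.9% to 89.2% of the counts in controls, nonresponders and stable tumours, but from 23.8% in responder 1 to 87.0% in responder 5. Responder 4, with 54.2%, had the smallest library. CPM values of these responders are therefore low against a scale of protein-coding counts alone, on which the hair shaft keratins of responder 1 stood at 3020 in place of 719 CPM and its keratin-associated proteins at 3238 in place of 771 CPM, the highest values of the 25.

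All classes but the simple epithelial one varied between tumours over several orders of magnitude. The sum of all 107 genes ran from 9.61 CPM in responder 3 to 5924 CPM in responder 2, and the number of genes with any count from 17 in responder 3 to all 107 in control 3. At least 10 CPM of epidermal keratins was found in 22 tumours, of root sheath keratins in 17, of hair shaft keratins in 14 and of keratin-associated proteins in 12. By gene length, Krt71 was the highest of the genes with an RPKM value in 15 tumours, Krt10, Krt15 and Krt80 in 3 each, and Krtap8-1 in responder 1. In bulk tissue, fewer cells of a type and less RNA per cell cannot be told apart.

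The SD of these sums was above the mean in every group, except for epidermal keratins in stable tumours. Epidermal keratins summed to 275 ± 423 CPM in controls (SD, n = 5), 203 ± 266 in nonresponders (n = 6), 104 ± 75.5 in stable tumours (n = 6) and 461 ± 709 in responders (n = 8). Root sheath keratins summed to 642 ± 926, 144 ± 209, 721 ± 850 and 708 ± 1064 CPM in the same order of groups, and hair shaft keratins to 356 ± 524, 44.1 ± 73.5, 323 ± 422 and 362 ± 497. For keratin-associated proteins the sums were 325 ± 456, 25.9 ± 47.8, 254 ± 341 and 356 ± 487 CPM. The nonresponders had the lowest mean of the 3 hair classes, and their highest tumour, nonresponder 1, lay within the range of every other group. Of the 14 tumours with 10 CPM of shaft keratins, 3 were controls, 4 nonresponders, 3 stable and 4 responders.

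**Figure D1:**
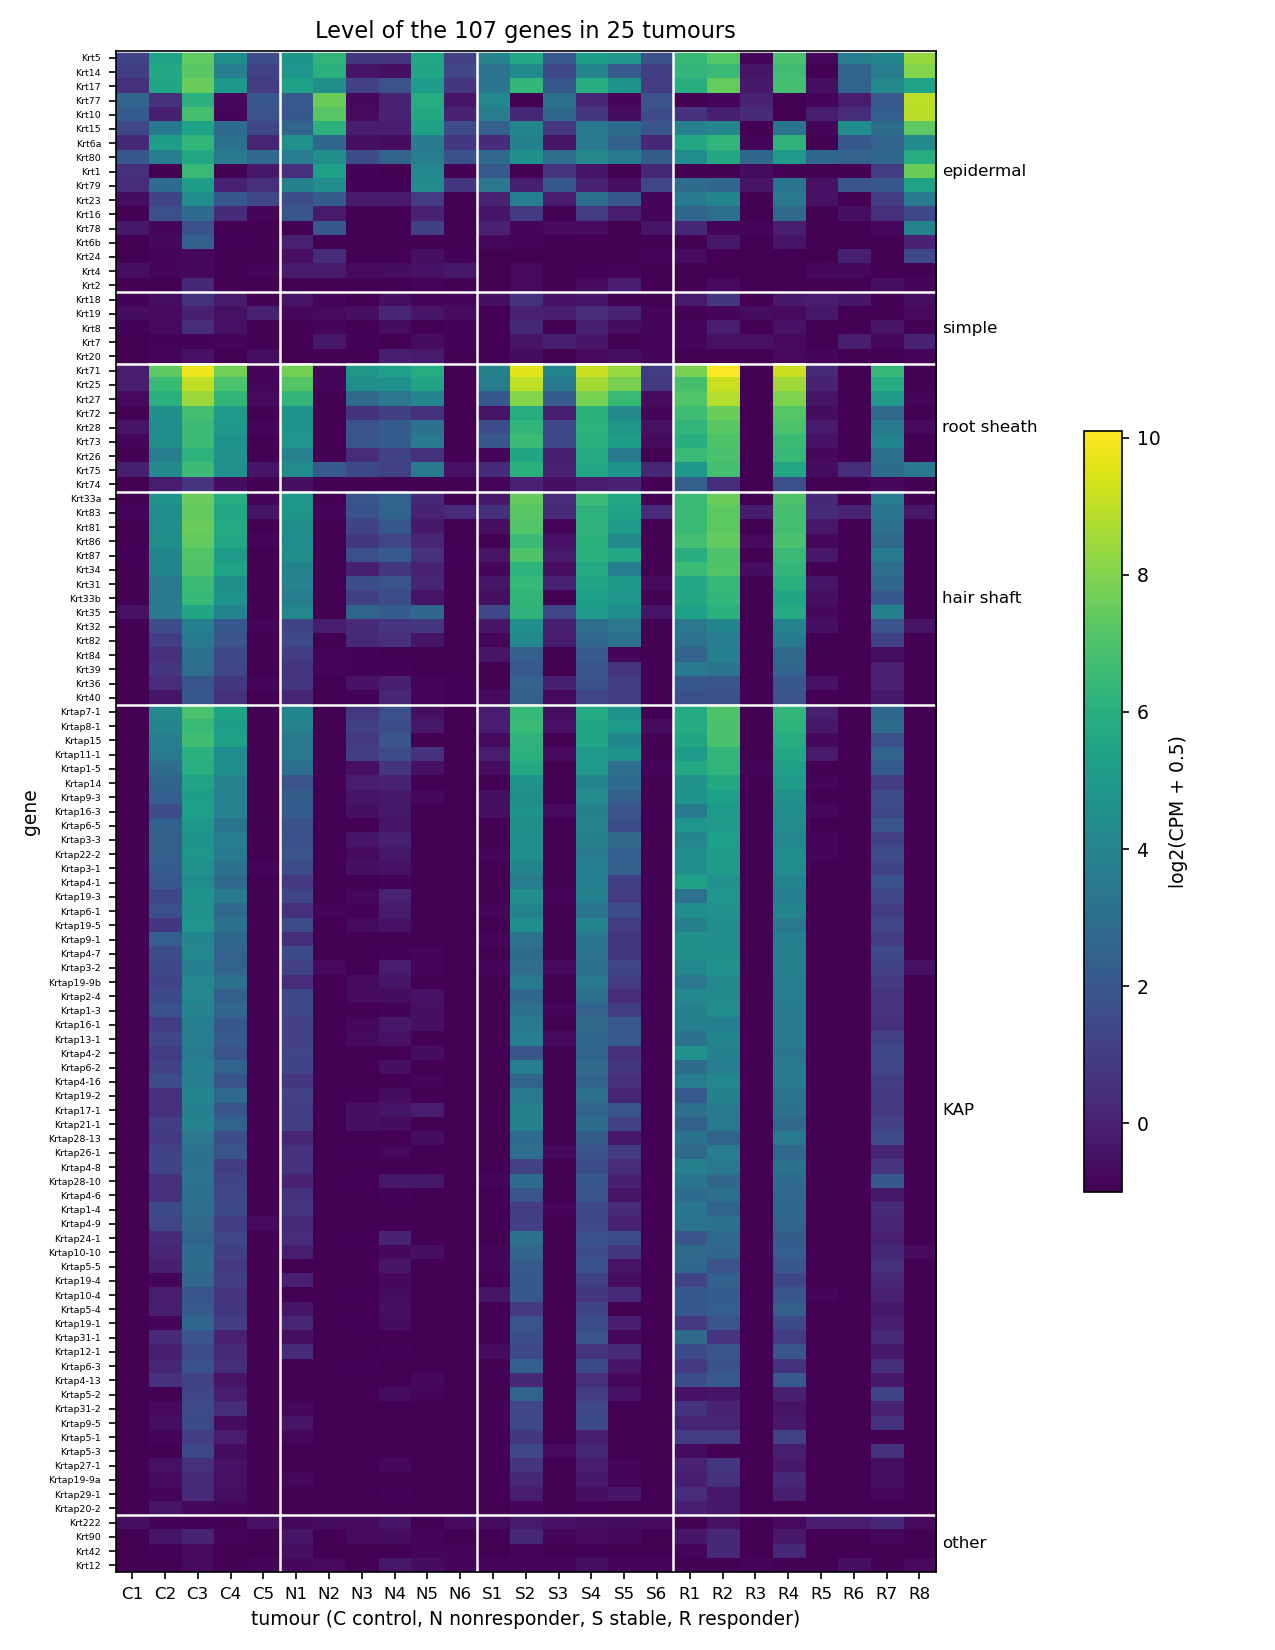
Level of the 107 genes (rows, by class and mean level) in each of 25 tumours (columns, by group) as log2(CPM + 0.5), with white lines between groups and between classes. Root sheath, hair shaft and keratin-associated protein genes are bright or dark in the same tumours, and the simple epithelial keratins are dark in all of them.

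Among the basal keratins, Krt5, the type II chain of basal keratinocytes, was counted in all 25 tumours: the controls had 1.88, 42.5, 169, 22.7 and 2.49 CPM, the nonresponders 1.09 to 77.1 (median 14.1), the stable tumours 2.91 to 47.9 (median 21.0) and the responders 0.0498 to 322 (median 51.6). Its partner Krt14 followed, with controls at 1.56, 50.6, 153, 12.9 and 1.76 CPM, nonresponders at 0.181 to 65.6 (median 14.5), stable tumours at 1.56 to 19.0 (median 6.52) and responders at 0 to 259 (median 46.1). The groups overlapped throughout, and responder 3 and responder 5 lay below every tumour of the other groups for Krt5. For Krt14 only responder 5 did so, since nonresponder 4 was lower than responder 3.

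Krt17, a keratin of the outer root sheath and of activated keratinocytes, reached 186 CPM in control 3 and 177 CPM in responder 2, against 42.4 CPM in responder 8. Krt17, Krt6a, Krt6b and Krt16 together amounted to 0.0862 times the counts of Krt5, Krt14 and Krt15 in responder 8 and 0.136 times in nonresponder 2, against 1.18 times in stable 4 and 1.03 times in responder 2. The median of this ratio over the 21 tumours with at least 100 basal counts was 0.635.

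The suprabasal keratins were concentrated in a few tumours. Krt10, the type I chain of the spinous layer, had 4.19, 0.444, 111, 0.0583 and 3.06 CPM in the controls, 0.135 to 148 in nonresponders (median 2.02), 0.146 to 12.4 in stable tumours (median 1.88) and 0 to 488 in responders (median 0.839). Krt1, its type II partner, reached 87.6 CPM in control 3, 40.6 in nonresponder 2, 17.4 in nonresponder 5 and 196 in responder 8, and stayed at or below 3.83 CPM elsewhere. Krt77, a related type II chain, reached 504 CPM in responder 8, 192 in nonresponder 2, 66.1 in control 3 and 58.3 in nonresponder 5. Responder 8, nonresponder 2, control 3 and nonresponder 5 thus held the 4 highest levels of all 3 genes.

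Krt1, Krt10 and Krt77 together ranged from 0 to 2.10 times the basal counts over those 21 tumours, with a median of 0.142. The ratio was 1.60 in responder 8, 1.80 in nonresponder 2 and 0.725 in control 3, but 0.00208 in responder 2, 0.00546 in responder 1 and 0 in responder 4, where 2027 basal counts came with no suprabasal count. Basal keratin transcripts therefore stood with suprabasal ones in some tumours and nearly without them in others.

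Krt80, a type II chain found in many stratified epithelia, was the most even member. It was above 1 CPM in all 25 tumours, with controls at 3.52, 13.0, 50.3, 11.4 and 6.34 CPM, nonresponders at 2.61 to 22.0 (median 8.74), stable tumours at 4.40 to 22.9 (median 9.31) and responders at 5.09 to 58.7 (median 13.4). In responder 3 and responder 5, where the other epidermal keratins were nearly absent, it was the only one of the 107 genes above 1 CPM, at 5.97 and 6.18 CPM.

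The keratins of simple epithelia, which line glands and ducts, were near the limit of detection. Krt18 did not exceed 1.26 CPM in any tumour, Krt8 0.834 CPM, Krt19 0.833 CPM and Krt7 0.574 CPM, and the summed class lay between 0.188 and 2.64 CPM. None of the 5 passed the filter for testing, nor did the 4 unclassed genes Krt12, Krt42, Krt90 and Krt222, whose highest values were 0.317, 0.685, 0.731 and 0.682 CPM. The deposited tables disagree for Krt7 in responder 1, with 7.75 RPKM beside 1 count. Under 3 counts stood beside 1 RPKM or more in 6 values of 4 genes in all, among them Krt6b with 17.3 RPKM and 0 counts in responder 1, and this was not resolved.

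The inner root sheath, which moulds the growing shaft, gave the highest values of the family. Krt71, a type II chain of that sheath, had 0.391, 161, 897, 212 and 0.0566 CPM in the controls, 0 to 220 in nonresponders (median 33.5), 1.49 to 795 in stable tumours (median 176) and 0 to 1094 in responders (median 41.6). Its type I partner Krt25 had 0.391, 92.6, 519, 122 and 0.0566 CPM in the controls, 0 to 140 in nonresponders (median 22.6), 1.35 to 531 in stable tumours (median 119) and 0 to 599 in responders (median 28.7). Each group held tumours above 200 CPM of Krt71 and tumours below 2 CPM, and the groups overlapped.

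Over all 25 tumours the mean RPKM was 74.7 for Krt71, 55.8 for Krt25 and 40.7 for Krt27, above each of the 14 hair shaft keratins in that table, the highest of which were Krt34 with 26.0, Krt33a with 23.7 and Krt31 with 23.2. Krt87 has no value there. The order among look-alike shaft keratins is uncertain, since their RPKM did not follow their counts. In control 3 Krt31 had 2161 counts and 83.6 RPKM over 1581 bases. Krt33a had 4259 counts and 82.9 RPKM over 1683 bases in the same tumour. Krt72, of the sheath's cuticle, had a mean of 15.7 RPKM. Krt75, of the companion layer between inner and outer sheath, was singled out after its values were seen: it made up 10.5 of the 10.7 CPM of root sheath keratins in responder 8 and 4.07 of the 4.18 in nonresponder 2, while Krt71 was 0 and 0.0515 CPM there.

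The hair shaft keratins lay in the same tumours as those of the sheath. In RPKM responder 1 was the highest tumour for each of the 14 shaft keratins in that table, and there the class summed to 1115 RPKM against 931 for the 9 sheath keratins. That rank rests on the library scale of RPKM, which differs from that of CPM. The sums include look-alike shaft keratins whose RPKM did not follow their counts, so which class was higher is uncertain. Krt33a, a type I chain of the cortex, had 0, 25.9, 188, 57.4 and 0.0566 CPM in the controls, 0 to 29.6 in nonresponders (median 1.99), 0 to 170 in stable tumours (median 25.4) and 0 to 196 in responders (median 6.32). Krt81 and Krt86, type II chains of the cortex, reached 187 and 171 CPM in control 3 and 158 and 173 CPM in responder 2, and both were at 0 in control 1, nonresponder 2, nonresponder 6, stable 6, responder 6 and responder 8. Krt83, whose sequence is close to theirs, had counts in all 25 tumours, from 0.0515 CPM in nonresponder 2 to 171 CPM in control 3. In the RPKM table it is listed at 0 in 4 tumours with 5 counts or more, among them nonresponder 6 with 19 counts.

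Of the 3 hair classes, the keratin-associated proteins reached 10 CPM in the fewest tumours. Krtap8-1, a glycine- and tyrosine-rich protein of the cortex, had 0, 16.3, 89.3, 37.1 and 0 CPM in the controls, 0 to 15.0 in nonresponders (median 0.975), 0.135 to 90.9 in stable tumours (median 16.4) and 0 to 120 in responders (median 3.70). By length it stood first in its class with a mean of 41.0 RPKM, ahead of Krtap7-1 with 38.0 and Krtap15 with 22.2. Krtap11-1, a cysteine-rich protein, reached 78.8 CPM in responder 2, 70.2 in stable 2 and 66.9 in control 3. No count of any of the 57 genes was found in control 1, nonresponder 6 or responder 6, so that each of these genes may lie below 0.106, 0.118 and 0.294 CPM there.

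**Figure D2:**
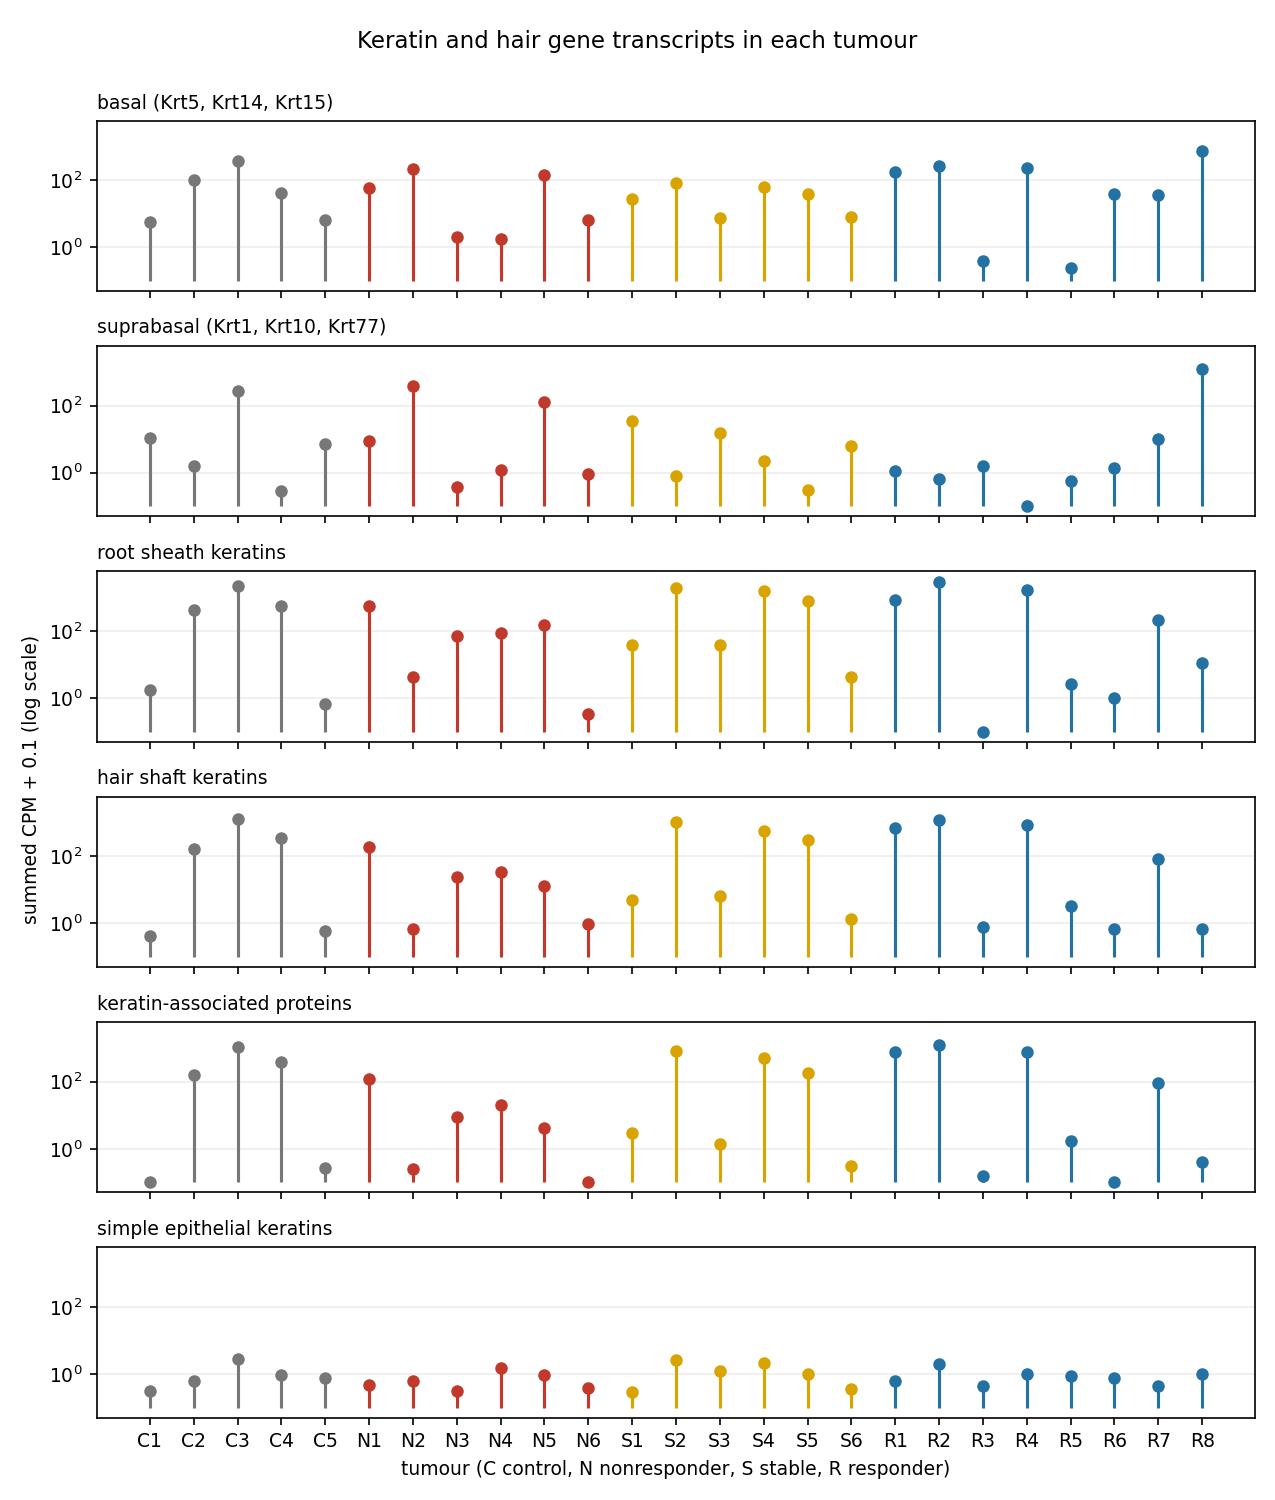
Summed CPM + 0.1 (log scale) of 6 sets of genes in each of 25 tumours, 1 point per tumour, coloured by group, with a line from the value that stands for 0. The 3 hair classes are high in the same tumours of every group, suprabasal keratins are high in control 3, nonresponder 2, nonresponder 5 and responder 8, and simple epithelial keratins stay at or below 2.64 CPM.

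Sheath, shaft and matrix genes were high in the same tumours, and the suprabasal ones in partly different tumours. All 14 tumours with at least 10 CPM of hair shaft keratins also had at least 10 CPM of root sheath keratins, and 12 of them had as much of keratin-associated proteins. No tumour had 10 CPM of keratin-associated proteins without the shaft. Of the same 14 tumours, only control 3 and nonresponder 5 also had 10 CPM of Krt1, Krt10 and Krt77. Another 5 tumours had these without the shaft, and 6 had neither. The split depends on that line: responder 7 and nonresponder 1, with 84.9 and 192 CPM of shaft keratins, lay just under it with 9.89 and 8.37 CPM of the suprabasal genes. The extremes were responder 8, with 1187 CPM of the 3 suprabasal genes and 0.574 CPM of shaft keratins, and responder 4, with 851 CPM of shaft keratins and no suprabasal count. These counts describe the 25 pieces and carry no test.

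**Figure D3:**
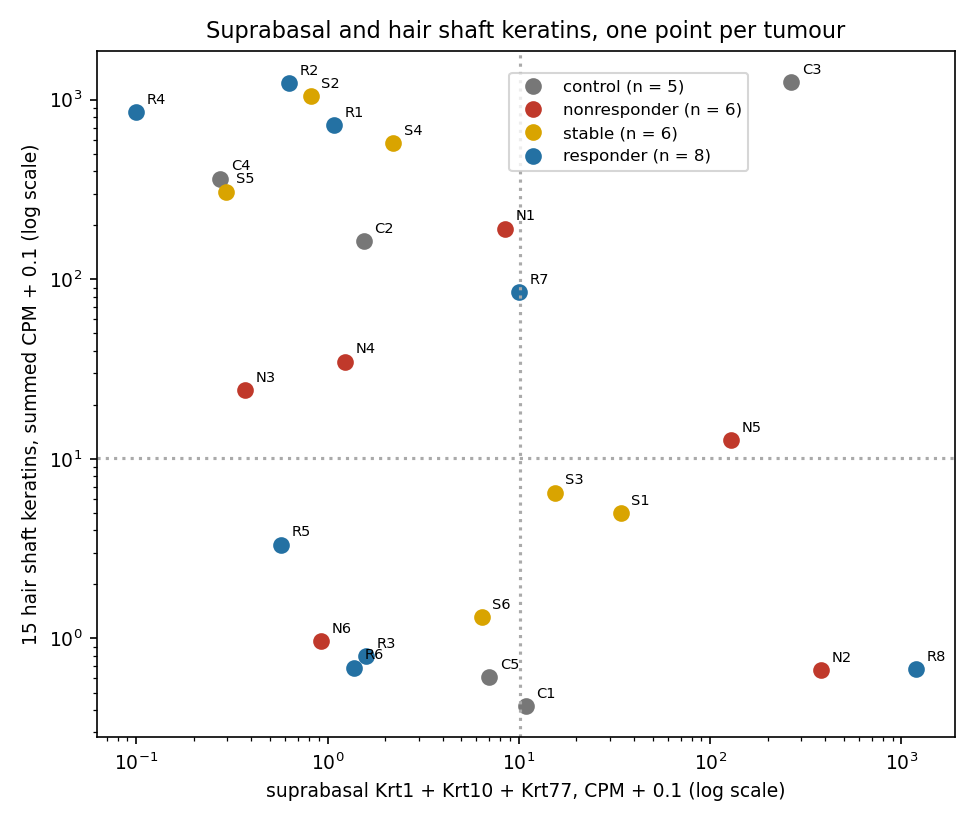
Summed CPM of the 15 hair shaft keratins against that of Krt1, Krt10 and Krt77 in 25 tumours, both + 0.1 on log scales, with dotted lines at 10 CPM. Control 3 lies high on both axes, responder 8 and nonresponder 2 lie high on the suprabasal axis alone, and 12 tumours, from all 4 groups, lie above the line for the shaft and below it for the suprabasal genes.

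Of the lists of skin markers outside the family, that of the hair follicle was high in tumours with shaft keratins. That of the sebaceous gland was highest in tumours with suprabasal keratins. Both lists reached 10 CPM in 3 tumours, the follicle list alone in 16 and the sebaceous list alone in 1. The 24 epidermal genes other than keratins and the 9 pan-epithelial genes passed 10 CPM in all 25. The epidermal list was highest in responder 8, at 2740 CPM. In responders 3 and 5 it still had 508 and 425 CPM, beside 8.46 and 7.55 CPM of epidermal keratins. Its highest gene by mean was Itga6, with 338 CPM. Tchh, or trichohyalin, a protein of the inner root sheath and medulla, was found from 0.157 to 3428 CPM, and the 16 hair follicle genes summed to 4113 CPM in responder 2, 3483 in control 3 and 3363 in responder 4, but to 9.96 in responder 8 and 14.3 in nonresponder 2. All 14 tumours with 10 CPM of shaft keratins had as much of this list, and 5 more had the list alone. In 3 of these 5 it was mainly Lgr5, a follicle stem cell gene, with 9.69 of 10.9 CPM in control 1, 13.0 of 14.8 in control 5 and 10.8 of 14.3 in nonresponder 2, where Tchh was below 1 CPM. The 6 sebaceous gland genes were highest in responder 8 (43.7 CPM), nonresponder 2 (21.0), control 3 (18.9) and nonresponder 5 (15.5), the same 4 tumours that had the most suprabasal keratin. Genes of skeletal muscle, 138 to 4199 CPM, and of adipocytes, 53.3 to 492 CPM, were found in every tumour.

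Set against each other within a tumour, the hair classes varied less than in level. In 15 tumours with at least 100 shaft counts, root sheath keratins had 1.17 to 11.9 times the counts of shaft keratins, with a median of 2.51, and keratin-associated proteins had 0.202 to 1.09 times, with a median of 0.870. The sheath ratio was highest in nonresponder 5 (11.9) and stable 3 (5.81), and these tumours had the lowest matrix ratios, 0.313 and 0.202. Both had few shaft counts, 267 and 109. In responder 1 the balance was the other way, with 1.17 for the sheath and 1.07 for the matrix.

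The 16 glycine- and tyrosine-rich members kept the steadiest share of the keratin-associated protein counts, 0.306 to 0.426 in 13 tumours. The genes of the chromosome 11 cluster, most of them cysteine-rich, had 0.177 to 0.978 times the counts of the chromosome 16 cluster, lowest in nonresponder 3 and nonresponder 4 (0.177 and 0.225) and highest in responder 1. Krtap5-2, Krtap5-3, Krtap9-5 and Krtap31-2 were grouped after their values were seen. They summed to 11.7 CPM in stable 2, 8.87 in control 3, 6.61 in stable 4 and 4.51 in responder 7, but to 1.45 in responder 2, which had the highest CPM of keratin-associated proteins. In RPKM the same 4 genes were highest in responder 1 (10.2), followed by stable 2 (9.75) and control 3 (9.30), with 1.45 in responder 2, and responder 1 also had the highest sum of keratin-associated proteins (2679). RPKM uses another library scale than CPM, so this shift is not one of gene length alone.

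**Figure D4:**
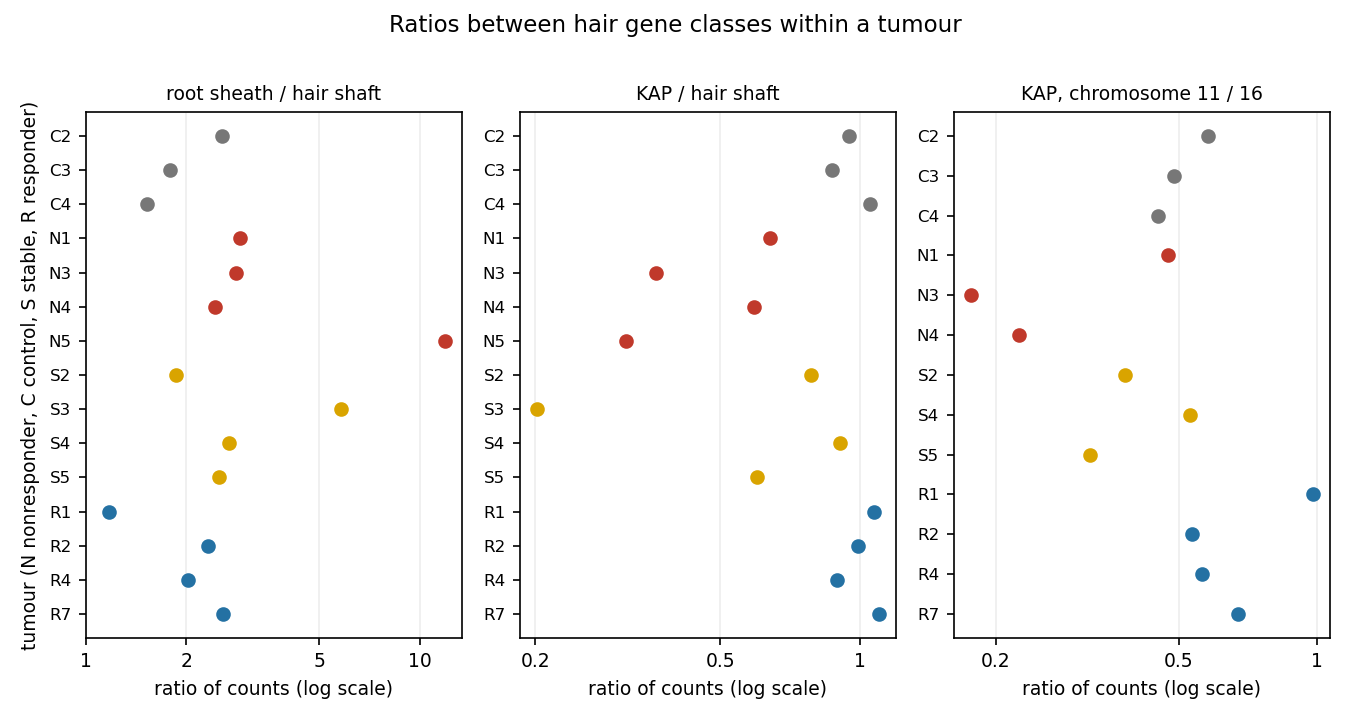
Ratios of counts between hair gene classes within each tumour that had at least 100 counts in the denominator, on log scales, coloured by group. Left to right, the sheath-to-shaft ratio spans 1.17 to 11.9, the ratio of keratin-associated proteins to shaft keratins 0.202 to 1.09, and the ratio of the chromosome 11 to the chromosome 16 cluster 0.177 to 0.978.

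The design asks which genes differ between tumours that shrank, held or grew under anti-CTLA-4, and between these and the isotype controls. Of the 107 genes, 88 passed the filter on low counts and were tested with edgeR among 18031 genes, 13 of them epidermal, 9 of the root sheath, 15 of the shaft and 51 keratin-associated. A gene that passed mainly through its level in 1 group would be more prone to differ, although the filter does not ask which group the tumours are in. These 88 therefore do not stand for the whole family.

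In responders against nonresponders, 41 of the 88 were called higher and 0 lower at an adjusted p under 0.05. Of all genes tested, 25.2% were called higher and 23.8% lower, and 48.9% in either direction, so that the share of members called, 46.6%, was near that of all genes called in either direction and above that of all genes called higher. The members are high or low in the same tumours, so their calls are not independent of one another. The calls were uneven: 37 of 51 keratin-associated proteins, 2 of 15 shaft keratins (Krt39 and Krt84, minor chains of the shaft), 1 of 9 root sheath keratins (Krt74) and 1 of 13 epidermal keratins (Krt80). Mouse Krt74 is annotated as a transcribed pseudogene, so no protein-coding root sheath keratin was called. It had 2 nonresponder counts in all, and 0 without nonresponder 1. The median log2 fold change was 5.12 for keratin-associated proteins, 3.75 for shaft, 3.23 for root sheath and 1.80 for epidermal genes, against 0.05 over all genes tested. Whether the classes differ from one another in this was not tested.

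The 3 largest changes among called genes were in Krtap9-1, Krtap4-1 and Krtap31-1, members of the chromosome 11 cluster. Krtap4-1 had 0, 0, 0, 0, 0.0453 and 1.29 CPM in the nonresponders and 0 to 40.4 CPM in the responders (median 1.49), and Krtap9-1 had 0 to 0.864 CPM and 0 to 23.6 CPM. In edgeR the fitted difference on the log2 scale was 7.20 for Krtap4-1, with an SE of 2.29 and an adjusted p of 0.0136. For Krtap9-1 it was 7.30, with an SE of 2.28 and an adjusted p of 0.0123. These sizes are loosely set, since Krtap9-1 had counts in nonresponder 1 alone of that group and Krtap4-1 had 1 count outside it: without nonresponder 1 the fitted values were 11.07 and 10.46, and without responder 1 6.04 and 5.54. Krtap31-1 rested on 2 nonresponder counts in all, and Krtap6-3 on 1, so that no fold is given for them. The smallest changes among called genes were in Krt80 (log2 fold change 1.80, SE 0.71, adjusted p 0.0405 in edgeR), Krtap12-1 (4.27, SE 1.65, adjusted p 0.0358) and Krtap19-4 (4.65, SE 1.83, adjusted p 0.0390).

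Responders and nonresponders overlapped for every one of the 88 genes. Of the 40 called genes other than Krt80, all 40 were below 1 CPM in responders 3, 5, 6 and 8 and 19 were below it in responder 7, while responders 1, 2 and 4 were the 3 highest responders for 39. At least 76.1% of the responders' summed CPM of each of the 40 came from those 3. Among the nonresponders, nonresponder 1 was the highest for 36 of the 40, and without it 21 of the 41 called genes had 3 counts or fewer in that group. In an exact two-sided permutation test of each gene's mean log2(CPM + 0.5) over all 3003 divisions of the 14 tumours, added after the data were seen, 0 of the 88 had a p under 0.05, and the called genes had p from 0.0849 to 0.226. That test used CPM of the library total, whereas edgeR scaled the totals by TMM factors, 0.339 in responder 1 and 0.818 in responder 4. The 2 results thus differ in scale as well as in test.

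The share of counts in protein-coding genes moved with this comparison, since it was low in responder 1 (23.8%) and responder 4 (54.2%). When edgeR took that share as a term of the model, 0 of the 88 genes were called. The share of all genes called in that fit was not counted, so this 0 does not single out the family. Leaving out 1 tumour changed the count of 41 by over 1.5 times for 8 of the 25: it was 15 without responder 1, 26 without responder 2 and 27 without responder 4, and 16 to 21 without nonresponder 3, 6, 2, 4 or 5.

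**Figure D5:**
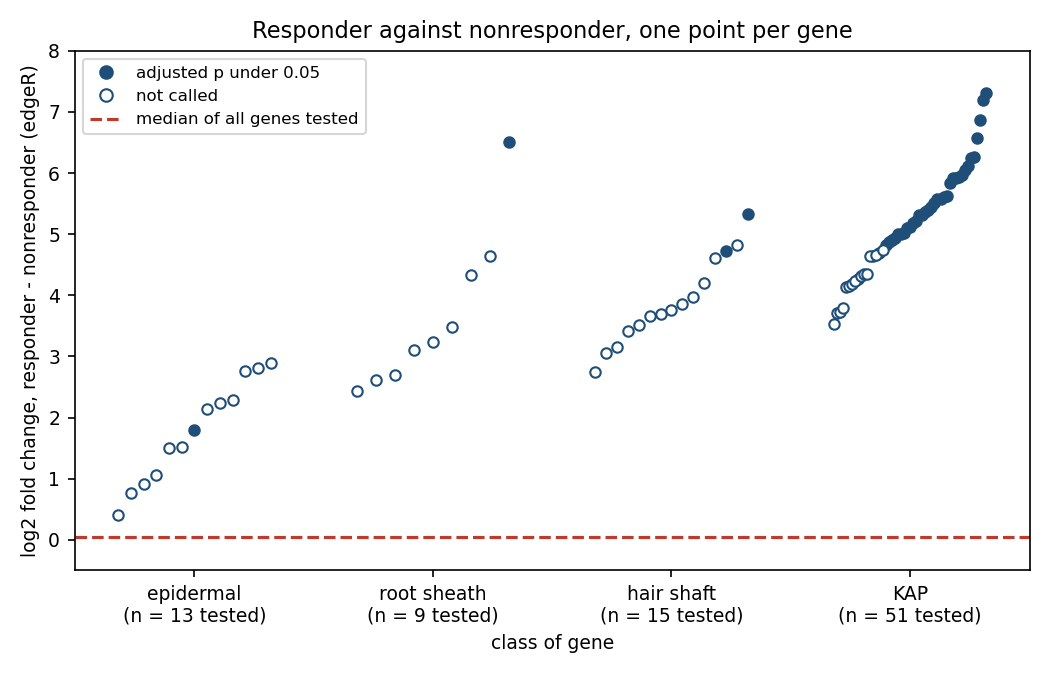
edgeR log2 fold change of responders (n = 8) against nonresponders (n = 6) for the 88 tested genes, 1 point per gene in order of size within its class, filled where the adjusted p was under 0.05, with a dashed line at the median of all genes tested (0.05). All points lie above the line and 37 of the 41 filled ones are keratin-associated proteins.

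The main keratins of each layer were not called. In edgeR the log2 fold change of responders against nonresponders was 2.29 (SE 1.33, adjusted p 0.153) for Krt5, 2.14 (SE 1.37, adjusted p 0.197) for Krt14 and 2.70 (SE 1.94, adjusted p 0.250) for Krt71. For Krt33a it was 3.85 (SE 1.97, adjusted p 0.106), and for Krtap8-1 4.15 (SE 1.93, adjusted p 0.0774). The suprabasal values turned on 1 tumour: the fitted value for Krt10 was 1.05, with an SE of 1.70 and an adjusted p of 0.622 in edgeR. Without responder 8 it was -4.40, and that of Krt1 went from 1.52 to -4.998 and that of Krt77 from 0.77 to -5.57. The 3 genes were then called lower in responders, with adjusted p of 0.029, 0.0452 and 0.0155 in edgeR. DESeq2, given all tumours, called Krt1 lower (-4.99, adjusted p 0.0369). Its default treatment of outlying counts can replace a value like that of responder 8. The DESeq2 estimate lay beside the edgeR one without that tumour (-4.998). This call is therefore not independent of the fit without responder 8.

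Between the other groups, 1 call was made. In stable tumours against nonresponders, Krtap6-3, a glycine- and tyrosine-rich member, had 0 to 4.52 CPM (median 0.146) against 0 to 0.045 CPM, with 1 count in all nonresponders, and it was the 1 gene of 88 called (adjusted p 0.0318 in edgeR). Of all genes, 7.08% were called higher and 7.86% lower there. At an unadjusted p under 0.05, 14 of the 88 passed in edgeR. The call was lost without nonresponder 1, 2, 3, 4 or 5 or without stable 2 or 4, and the exact permutation p of Krtap6-3 was 0.182.

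In responders against stable tumours 0 of the 88 genes were called in edgeR, where 38.2% of all genes were (20.5% higher and 17.8% lower), and 5 had an unadjusted p under 0.05. The median log2 fold change was 1.30, and DESeq2 called 4, all higher in responders: Krt10, Krt14, Krt6a and Krt24. Leaving out 1 tumour gave 0 or 1 calls: Krt14 higher without responder 3 or responder 5, and Krt19 lower without stable 1 or stable 6.

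Against the isotype controls no gene of the family was called in edgeR. Responders had a median log2 fold change of 1.07 with 0 of 88 genes called and 0 at an unadjusted p under 0.05. Of all genes 65.0% were called there (36.1% higher and 28.9% lower). DESeq2 called Krt7 higher, on 25 counts in responders and 4 in controls. It also called Krt1 lower (-5.96), near the edgeR value without responder 8 (-5.91). Stable tumours had a median of -0.32, again with 0 called and 0 at an unadjusted p under 0.05. Of all genes 41.8% were called there (22.2% higher and 19.6% lower). DESeq2 called Krt6b lower, and 108 of the 112 control counts of that gene came from control 3. Nonresponders had a median of -3.70, with 0 called, where 13.9% of all genes were (10.6% higher and 3.29% lower), 31 at an unadjusted p under 0.05, all of them keratin-associated proteins, and 0 in DESeq2. The controls themselves spanned nearly the whole range of the family, with 25.4 CPM in control 1, 27.0 in control 5, 948 in control 2, 1393 in control 4 and 5609 in control 3.

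Without control 3, responders were called higher than controls for 4 genes, Krt80, Krt1, Krt78 and Krt74, and without responder 8 they were called lower for Krt1, Krt10 and Krt77. These comparisons share the same 5 controls and the same treated tumours, so their values are not independent of each other.

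Other skin genes were counted in the same fit of responders against nonresponders. Of 16 hair follicle genes 3 were called higher (Tchhl1, Foxq1 and Fgf5) and 0 lower, with a median log2 fold change of 3.47, a smaller share than the 25.2% of all genes called higher, and Tchh itself had 3.70 (SE 2.12, adjusted p 0.149 in edgeR). Of 23 tested epidermal genes other than keratins 4 were called higher (Tgm1, Cdsn, Sfn and Aloxe3) and 1 lower (Itga6), with a median of 1.52, again a smaller share than that of all genes. None of 8 pan-epithelial or 6 sebaceous genes was called in edgeR, 3 of 16 muscle genes (Ckm, Mylpf and Myl1) and 1 of 12 adipocyte genes (Retn) were called lower, and all 9 pigment genes were called lower, with a median of -4.26. In stable tumours against nonresponders Cdsn was called higher, and Lgr5 and all 9 pigment genes lower. The part of attached skin, muscle or fat in these differences was not tested.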

How the data were processed

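Per the submitters' processing notes, bcl2fastq 2.17, Trimmomatic, STAR 2.5.1 and RSEM 1.2.22 were used with the mm10 build, with no step assigned to each tool. The authors deposited expected counts per gene for 55450 genes in 25 tumours, not normalized, of which 5.64% were not whole, and RPKM values for 19518 symbols, 98 of them members. The labels name a stranded total RNA kit and polyA RNA as the molecule, which was not resolved, and whether counting used strand is not stated. No 2 tumours of a group had the counts of 1 library (smallest chi-square per gene 17.1). All gene identifiers matched GENCODE M21.

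Expected counts were rounded and tested with edgeR 4.0.16 (R 4.3.3): filterByExpr by group, TMM scaling, robust glmQLFit with 1 spread over 4 groups, glmQLFTest, and Benjamini-Hochberg adjustment over 18031 genes, called at an adjusted p under 0.05. No covariate was used. CPM is counts-per-million of the library total. Sums over a class carry no test. Alternatives were DESeq2 1.42.0, RLE scaling, no filter, protein-coding genes only, the protein-coding share as a covariate, limma 3.58.1 on log2(RPKM + 1) and log2(RPKM + 0.1), and leaving out each of 25 tumours. DESeq2 was run with its default treatment of outlying counts, which can replace such counts in larger groups. Fits were checked on simulated counts.

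Genes were named by rule: the 4 highest by mean CPM in each class, the 3 largest and 3 smallest fold changes among called members of each comparison, and Krt1, Krt5, Krt8, Krt10, Krt14, Krt18 and Krt19. The members and all lists were chosen with earlier results of these data known. Nothing says how the tumours were cut out, and p-values measure the spread between these tumours. The labels number the libraries group after group, so that processing order and group cannot be told apart.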

Additional observations from a re-analysis of the deposited data

Results flagged for a closer look

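Summed CPM of 7 sets of keratin genes was examined in the 4 groups, 28 times in all, for a highest or lowest tumour that lay far from its nearest neighbour for the range of its group. Such a tumour was found 14 times, and it was always the highest one. The limit used lets about 1 in 20 groups pass by chance only where values are normally distributed, which these skewed sums are not. The 14 are therefore not set against that rate. Skewed values of this kind are described with no cause, and the sets overlap, so the 14 are not independent.

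Control 3 stood apart in 6 sets: 1020 CPM of epidermal keratins (next 212), 366 of basal (next 104), 265 of suprabasal (next 10.8), 2.64 of simple epithelial (next 0.874), 2238 of root sheath (next 552) and 1255 of hair shaft keratins (next 363). Responder 8 stood apart in epidermal (2124 CPM, next 594), basal (744, next 256) and suprabasal keratins (1187, next 9.89). Responder 2 stood apart in simple epithelial keratins (1.93 CPM, next 0.913).

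Nonresponder 1 stood apart in root sheath (554 CPM, next 150), hair shaft (192, next 34.7) and keratin-associated genes (122, next 20.5), and nonresponder 2 in suprabasal keratins (380, next 128).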

How the results depend on the processing

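No paired analysis was possible because the labels give no replicate numbers shared between groups. The 41 calls of responders against nonresponders became 0 when the share of protein-coding counts was a covariate, 20 without the filter (19 higher, 1 lower), 3 in limma on log2(RPKM + 0.1), 0 in limma on log2(RPKM + 1), 0 in the exact permutation test, which was chosen after seeing the data, and 15 to 57 on leaving out 1 tumour. Where these counts reflect fewer genes or tumours the cause follows from the setting, and otherwise the cause was not tested. The share of all genes called was not counted under any alternative, here or below, so these counts do not single out the family. Responders against stable tumours went from 0 to 4 (DESeq2), 1 (no filter), 1 (RPKM + 0.1) and 0 to 1 (1 tumour left out). Stable tumours against nonresponders went from 1 to 3 (protein-coding genes), 3 (covariate), 0 (RPKM + 1) and 0 to 3 (1 tumour left out), and the direction turned without the filter and with RPKM + 0.1, where the 1 call was Krt4, lower in stable tumours. Responders against controls went from 0 to 2 (DESeq2), 1 (no filter), 3 (RPKM + 0.1) and 0 to 4 (1 tumour left out). Stable tumours against controls went from 0 to 1 with DESeq2, 1 without the filter and 1 with RPKM + 0.1, and 0 to 0 on leaving out 1 tumour. Nonresponders against controls went from 0 to 1 (protein-coding genes), 3 (covariate), 1 (RPKM + 0.1) and 0 to 1 (1 tumour left out). The sign turned for 3 genes between responders and nonresponders: Krt1 (-4.99 in DESeq2, -0.74 with RPKM + 0.1, -4.998 without responder 8, -0.81 as the mean difference in the permutation test), Krt10 (-0.28 with RPKM + 0.1, -0.31 with RPKM + 1, -4.40 without responder 8, -0.96 in the permutation test) and Krt77 (-1.38, -0.66, -5.57 and -1.52 under the same settings). Leaving out 1 tumour gave at most 2.88, 2.57 and 2.46 for these genes, each without nonresponder 2. Of the other settings for single genes 768 kept direction and side of the threshold, 66 lost the call and 7 gained one. The log2 ratio of responder to nonresponder mean sums was 3.04 for shaft and 3.78 for keratin-associated genes, 3.97 and 4.75 over protein-coding counts, and 2.43 to 4.63 and 3.16 to 5.74 with 1 tumour left out. Genes under about 0.342 CPM cannot be told from 0 in the smallest library.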
